A study of Homo sapiens with 6 samples.

Results

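The 9 genes described here make, modify, bind or cut hyaluronan and chondroitin sulfate: TMEM2, HYAL2, CD44, UGDH, XYLT2, CSGALNACT2, CHSY1, CHPF and CHPF2. They were taken by gene symbol from 11679 genes measured in 786-O cells, a line from a human kidney carcinoma of the clear cell type without functional VHL, and each of the 9 was found. The genes were proposed with their fold changes already known, so all values below describe them, and no test of theirs is offered as support. Polyadenylated RNA was compared after knockdown of ALYREF, an adaptor that couples the packaging of messenger RNA to its export from the nucleus. The groups were cells given ALYREF siRNA5, cells given ALYREF siRNA8 and cells given a non-targeting control siRNA (NTC), with 2 libraries each, all collected 48 h after transfection. All groups were the same cell line, transfected in the same way, and the labels do not say whether the 2 libraries of a group came from separate cultures.

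The deposited values were 2 tables of the authors' results, 1 for each siRNA. Each gives for every gene a normalized count averaged over libraries, a log2 fold change of knockdown over NTC, its standard error (SE) and an adjusted p. Values of single libraries were not analysed here, so the SE carries the spread between libraries. From the mean and the 2 fold changes a level was rebuilt for each group, on the assumption that the fit covered these 6 libraries and that the fold changes are plain ratios of group means. These rebuilt levels are normalized counts without an SE of their own. In a pool of cells, fewer cells that express a gene and less RNA per cell cannot be told apart. ALYREF fell to 5.67% of the NTC level with siRNA5 (95% interval 4.98 to 6.46) and to 7.83% with siRNA8 (6.98 to 8.79), in the authors' deposited tables. Of 10 markers of a renal carcinoma line, 8 were measured, among them PAX8, CA12 and VIM, whereas 0 of 6 endothelial, 1 of 8 immune and 1 of 6 fibroblast markers were in the tables.

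Hyaluronan is a long, unsulfated sugar chain spun out at the plasma membrane by hyaluronan synthases from UDP-glucuronic acid and UDP-N-acetylglucosamine. It is bound at the cell surface by CD44 and is cut by hyaluronidases into fragments that cells take up. Chondroitin sulfate is instead built in the Golgi on a protein core: a xylosyltransferase starts a linker, an N-acetylgalactosaminyltransferase adds the first sugar of the chain proper, and chondroitin synthases and polymerizing factors extend it before sulfation. Both polymers fill the matrix around kidney and tumour cells, and both draw on the UDP-glucuronic acid made by UGDH.

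TMEM2, CSGALNACT2 and CHSY1 were higher with both siRNAs, CHPF2 was much lower with siRNA5, XYLT2 was much lower with siRNA8, and CD44 was higher with siRNA5 and lower with siRNA8. By the authors' deposited adjusted p-values under 0.05, the threshold for a call throughout, 4 of the 9 genes were higher with siRNA5, 1 was lower and 4 were not called, where 46.4% of all genes were called in either direction, 24.4% higher and 22.0% lower. With siRNA8, 4 were higher, 5 lower and 0 not called, where 41.5% of all genes were called, 21.0% higher and 20.5% lower. The genes were chosen from these same contrasts, so nothing is read from these shares. The median log2 change of the 9 was 0.02 with siRNA5 and -0.18 with siRNA8, beside 0.0097 and 0.0063 over all genes. Both comparisons used the same NTC libraries, so a shift of those libraries would appear in both columns of values.

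**Figure D1:**
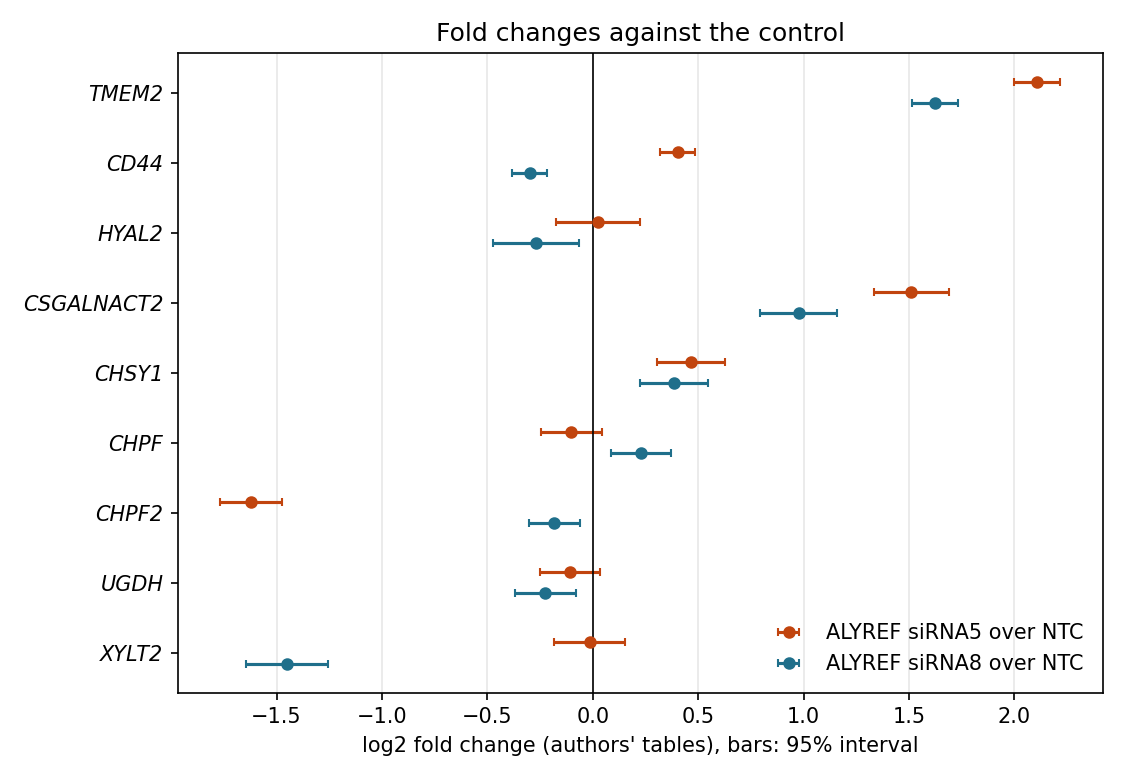
Log2 fold change over NTC (x axis, authors' tables) of each of the 9 genes with ALYREF siRNA5 (orange, upper point) and ALYREF siRNA8 (blue, lower point), with bars for the 95% interval from the standard error. TMEM2 lies at 2.11 and 1.62, CHPF2 at -1.62 and -0.18, and XYLT2 at -0.015 and -1.45.

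TMEM2 encodes a membrane protein with a large extracellular part that was described as a hyaluronidase of the cell surface, and it carries the name CEMIP2 in newer annotations. Its rebuilt level was 4598 normalized counts with siRNA5 and 3281 with siRNA8, against 1066 in NTC cells. Both knockdown groups thus lay far above the control. In the authors' deposited tables, TMEM2 rose by 2.11 on the log2 scale with siRNA5 (SE 0.056) and by 1.62 with siRNA8 (SE 0.056), which puts it at 431% of NTC (95% interval 399.9 to 465) and 308% (285 to 332). TMEM2 had the highest Wald statistic, which is the fold change over its SE, of all 11679 genes in each table: 37.8 with siRNA5 and 28.8 with siRNA8. By log2 fold change alone it ranked 2 with siRNA5 and 11 with siRNA8 among the 9357 genes that averaged 100 or more normalized counts. Its log2 change exceeded that with siRNA8 by 0.49 in siRNA5 cells (SE 0.079, 95% interval 0.33 to 0.64), where the SE leaves out the covariance of the shared controls and so is an upper bound.

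HYAL2, a hyaluronidase anchored to the outer leaflet of the membrane that cuts large hyaluronan, followed another course. Its rebuilt level was 477 normalized counts with siRNA5 and 389 with siRNA8, against 469 in NTC cells. The siRNA5 and NTC levels nearly coincided, and the siRNA8 level was the lowest of the 3. HYAL2, in the authors' deposited tables, had a log2 change of 0.02 with siRNA5 (SE 0.10), which was not called, and it fell by 0.27 with siRNA8 (SE 0.10), to 83.0% of NTC (95% interval 72.2 to 95.5). The difference between the siRNAs was 0.29 on the log2 scale (SE 0.14, 95% interval 0.0081 to 0.58), and after adjustment over all genes it was not called, unless the covariance of the shared controls was allowed for. HYAL3, a relative of HYAL2 named after its values were seen because its mean of 93.0 is low, fell by 0.62 with siRNA5 (SE 0.24, adjusted p = 0.0208 by the authors' Wald test). With siRNA8 the authors' deposited table gives HYAL3 a log2 change of -0.53 (SE 0.23) and an adjusted p of 0.0502. TMEM2, HYAL2 and HYAL3 were the 3 measured genes of 7 listed for hyaluronan breakdown, and TMEM2 alone of these 3 was higher.

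CD44, the main cell-surface receptor of hyaluronan and itself a carrier of chondroitin or heparan sulfate chains in some spliced forms, moved in opposite directions. Its rebuilt level was 13953 normalized counts with siRNA5 and 8577 with siRNA8, against 10559 in NTC cells. The NTC level lay between both knockdown levels. In the authors' deposited tables, CD44 rose by 0.40 on the log2 scale with siRNA5 (SE 0.043), to 132% of NTC (95% interval 125 to 140.0), and fell by 0.30 with siRNA8 (SE 0.043), to 81.2% (76.6 to 86.1). The log2 difference between the siRNAs was 0.70 (SE 0.060, 95% interval 0.58 to 0.82). The counts are per gene, so that CD44 forms with and without variable exons are not separated.

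**Figure D2:**
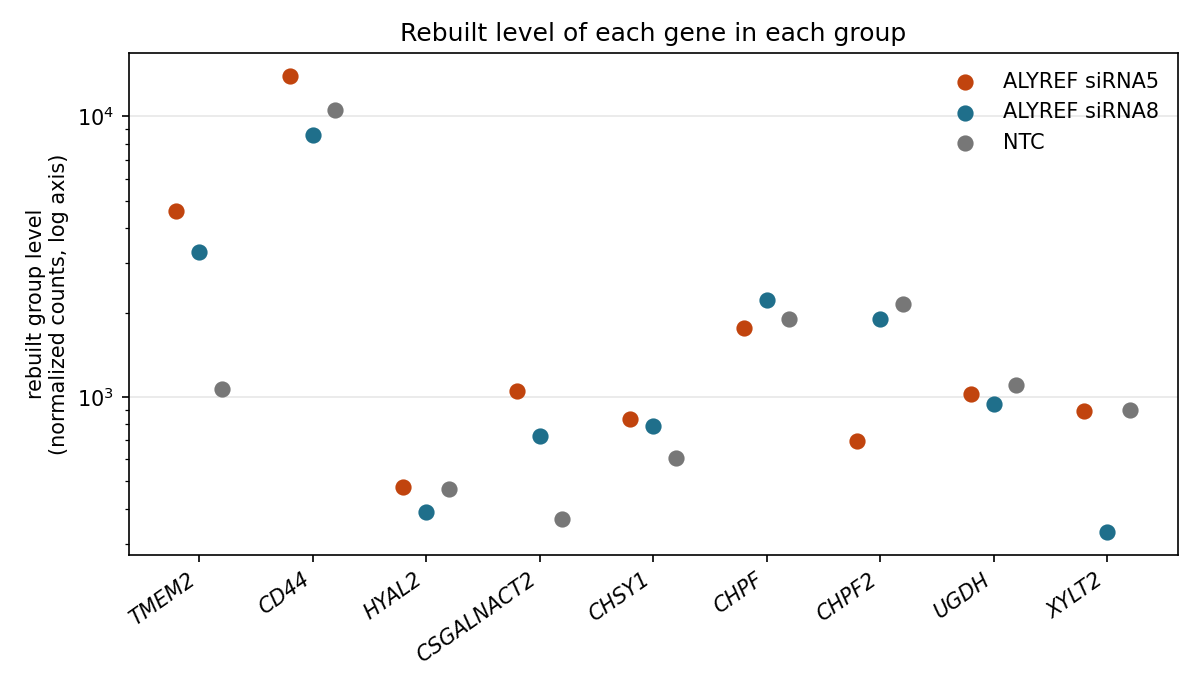
Rebuilt level of each gene (y axis, normalized counts, log axis) with ALYREF siRNA5 (orange), with ALYREF siRNA8 (blue) and in NTC cells (grey). Points are to be compared within a gene, because counts are not scaled by length; no error can be given for a rebuilt level. TMEM2 reads 4598, 3281 and 1066 from left to right, and XYLT2 reads 892, 329.9 and 901.5.

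UGDH oxidizes UDP-glucose to UDP-glucuronic acid, the donor shared by hyaluronan and chondroitin. Its rebuilt level was 1026 normalized counts with siRNA5 and 946 with siRNA8, against 1105 in NTC cells, a narrow range with NTC highest. UGDH, in the authors' deposited tables, had a log2 change of -0.11 with siRNA5 (SE 0.073), which was not called, and fell by 0.22 with siRNA8 (SE 0.073), to 85.6% of NTC (95% interval 77.5 to 94.6). These changes did not separate the siRNAs, with a log2 difference of 0.12 (SE 0.10) whose 95% interval of -0.09 to 0.32 includes 0.

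XYLT2, a xylosyltransferase that attaches the first sugar of the linker to the core protein, was lower with siRNA8 and was not called with siRNA5. Its rebuilt level was 892 normalized counts with siRNA5 and 329.9 with siRNA8, against 901.5 in NTC cells. The siRNA5 and NTC levels lay close together, and the siRNA8 level lay far below both. In the authors' deposited tables, XYLT2 had a log2 change of -0.015 with siRNA5 (SE 0.085, 95% interval -0.18 to 0.15) and fell by 1.45 with siRNA8 (SE 0.098), to 36.6% of NTC (95% interval 32.0 to 41.8). With siRNA8 it ranked 39 from the bottom among the 9357 genes averaging 100 or more. The log2 difference between the siRNAs was 1.43 (SE 0.13, 95% interval 1.18 to 1.69). XYLT1, the other xylosyltransferase, was not analysed here.

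CSGALNACT2 adds the first N-acetylgalactosamine to the linker and so commits it to chondroitin rather than heparan sulfate. Its rebuilt level was 1048 normalized counts with siRNA5 and 724 with siRNA8, against 367.8 in NTC cells. Both knockdown levels were above the control, in the same order as for TMEM2. In the authors' deposited tables, CSGALNACT2 rose by 1.51 on the log2 scale with siRNA5 (SE 0.091), to 285% of NTC (95% interval 252 to 323), and by 0.98 with siRNA8 (SE 0.093), to 197% (173 to 223). It ranked 17 and 86 by log2 fold change among the 9357 genes averaging 100 or more. Its change was larger with siRNA5 by 0.53 on the log2 scale (SE 0.13, 95% interval 0.28 to 0.79).

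CHSY1, a chondroitin synthase that adds both sugars of the repeat, had a rebuilt level of 834 normalized counts with siRNA5 and 789 with siRNA8, against 604 in NTC cells. The 2 knockdown levels were close and both were above the control. By the authors' deposited tables, CHSY1 rose by 0.47 on the log2 scale with siRNA5 (SE 0.083), to 138% of NTC (95% interval 123 to 155), and by 0.39 with siRNA8 (SE 0.082), to 131% (117 to 146). The log2 difference between the siRNAs was 0.08 (SE 0.12), with a 95% interval of -0.15 to 0.31. CHSY3, its paralogue with a low mean of 96.3, rose by 1.11 with siRNA5 (SE 0.21, adjusted p = 1.17e-06 by the authors' Wald test) and had a log2 change of -0.05 with siRNA8 (SE 0.23, adjusted p = 0.888) in the authors' deposited tables. CHSY3 was named after its values were seen.

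CHPF, the chondroitin polymerizing factor that works together with a synthase, had a rebuilt level of 1764 normalized counts with siRNA5 and 2218 with siRNA8, against 1892 in NTC cells. The control again lay between the knockdown levels. CHPF, in the authors' deposited tables, had a log2 change of -0.10 with siRNA5 (SE 0.073), which was not called, and rose by 0.23 with siRNA8 (SE 0.072), to 117% of NTC (95% interval 106 to 129). The log2 difference of siRNA5 minus siRNA8 was -0.33 (SE 0.10, 95% interval -0.53 to -0.13). CHPF2, a close relative that transfers glucuronic acid to the chain, had a rebuilt level of 698 normalized counts with siRNA5 and 1893 with siRNA8, against 2148 in NTC cells. In CHPF2 the siRNA5 level was far below the other two. By the authors' deposited tables, CHPF2 fell by 1.62 on the log2 scale with siRNA5 (SE 0.075), to 32.5% of NTC (95% interval 29.4 to 36.0), and by 0.18 with siRNA8 (SE 0.062), to 88.1% (81.0 to 95.9). It ranked 26 from the bottom with siRNA5 among the 9357 genes averaging 100 or more, and 2483 with siRNA8. The log2 difference between the siRNAs was -1.44 (SE 0.098, 95% interval -1.63 to -1.25), similar in size and opposite in sign to that of XYLT2.

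**Figure D3:**
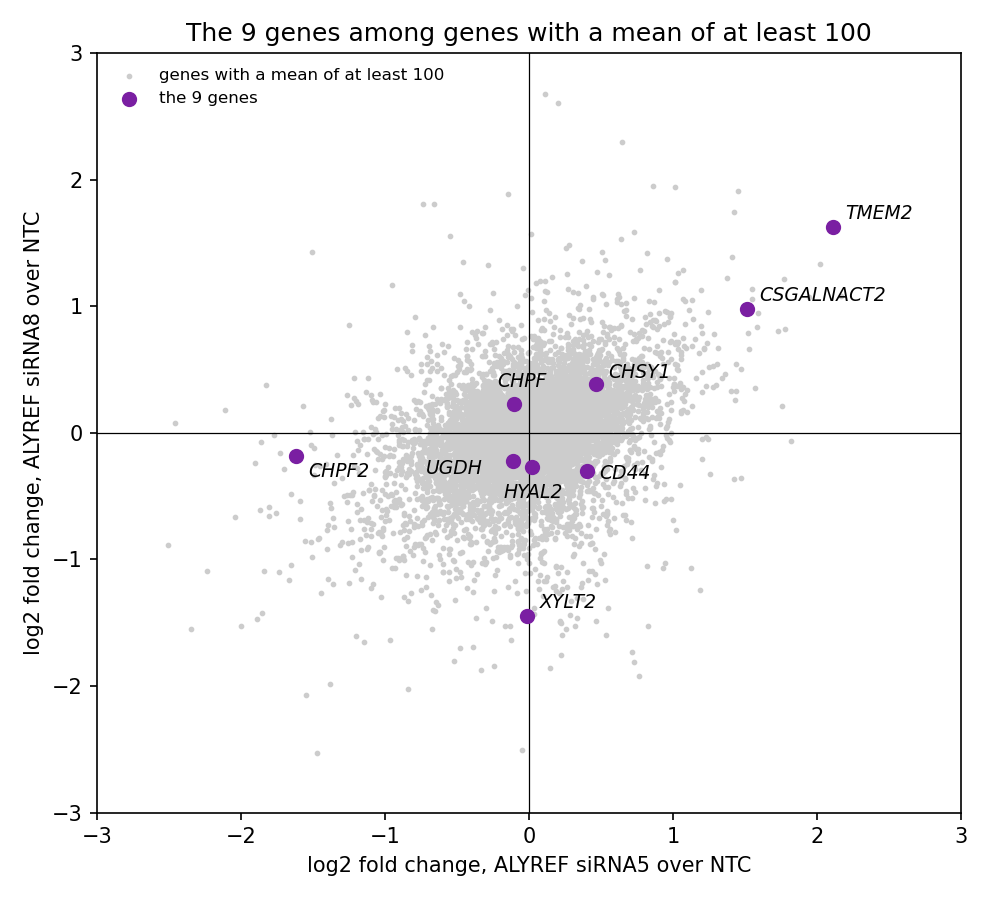
Log2 fold change with ALYREF siRNA5 (x axis) and with ALYREF siRNA8 (y axis), both over NTC, for 9356 genes with a mean of at least 100 other than ALYREF (grey) and for the 9 genes (purple, named). Both axes share the NTC libraries, so they are not independent. TMEM2 stands at the upper right edge, CHPF2 at the left (-1.62) and XYLT2 at the bottom (-1.45).

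Levels of different genes can be set side by side only per length, so each rebuilt level was divided by the merged exon length in GENCODE release 29 (GRCh38), which need not be the authors' annotation. Per kb of exon, CD44 was the most abundant of the 9 genes in each group, with 2287 normalized counts with siRNA5, 1406 with siRNA8 and 1730 in NTC cells. TMEM2 had 691 per kb with siRNA5, the second highest of the 9, and 493 with siRNA8, the third, against 160.2 in NTC cells, where it was only number 6. HYAL2 had 114 and 93.2 per kb with siRNA5 and siRNA8, against 112 in NTC cells. TMEM2 was thus above HYAL2 in every group on this scale, which depends on the length used. The HYAL2 transcript of 4054 bases holds 1419 coding bases and 339 bases after the coding part. A shorter HYAL2 transcript in these cells would raise its value per kb, and the order in NTC cells could then change. Among the 3 extending factors, CHPF2 had 175 per kb with siRNA5 and 475 with siRNA8, against 539 in NTC cells. CHPF had 526 and 661, against 564, and CHSY1 had 183 and 173, against 133. CHPF and CHPF2 differed little per kb in NTC cells, whereas with siRNA5 CHPF2 was the lowest of these 3. CSGALNACT2 had 281 and 194 per kb with siRNA5 and siRNA8, against 98.6 in NTC cells, where it was the least abundant of the 9. XYLT2 took that lowest place with siRNA8, at 90.0 per kb, against 243 with siRNA5 and 246 in NTC cells. The spread behind neighbours in these orders is not known without values per library.

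The 9 genes share little in structure. By the principal GENCODE transcript, TMEM2 has 24 exons and CD44 18, UGDH has 12, XYLT2 11 and CSGALNACT2 8, while CHPF and CHPF2 have 4 each and CHSY1 and HYAL2 3 each, beside a median of 9 over the 11007 matched coding genes. The transcripts of HYAL2, CHPF, CHPF2 and XYLT2 had a GC content of 61.4% to 67.6%, at or above percentile 88.8 of the matched genes, and those of the other 5 had 38.2% to 49.8%. By the authors' deposited tables, the log2 changes of the 4 GC-rich transcripts spanned -1.62 to 0.02 with siRNA5 and -1.45 to 0.23 with siRNA8. Those of the other 5 spanned -0.11 to 2.11 and -0.30 to 1.62. The lowest values were those of CHPF2 with siRNA5 and XYLT2 with siRNA8. The 9 genes were chosen with their changes known, so nothing is read from this split. A relation of change to GC content was not tested. TMEM2 spans 133 kb on chromosome 9 and CHSY1 76.2 kb on chromosome 15, whereas CHPF on chromosome 2, HYAL2 on chromosome 3 and CHPF2 on chromosome 7 span 4.84, 5.12 and 6.34 kb. CHPF shares 125 exon bases with TMEM198 on the opposite strand and XYLT2 shares 160 with the transcript AC015909.5, also on the opposite strand. CHPF2 contains the microRNA gene MIR671 in 118 exon bases, and CD44 shares 63 with CD44-AS1. The libraries keep strand, but no source used here gives the strand setting or the annotation of the counting. Reads on shared bases may thus have been set aside as ambiguous or counted for the gene. Any small contribution of these neighbours cannot be told apart from the genes' own reads. MIR671 lies on the same strand as CHPF2, so strand would not separate them. The shared bases were 1.03% to 4.36% of the exon bases of each gene. TMEM2, CSGALNACT2, CHSY1, HYAL2 and UGDH share no exon base with another annotated gene.

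The promoters of TMEM2, CSGALNACT2 and CHSY1 are shown because these 3 genes were higher with both siRNAs. Each covers 250 bases before to 50 bases after the start in RefSeq (GRCh38.p14), read 5′ to 3′ on the gene's strand. They are chr9:71768464-71768763 (minus strand) for TMEM2, chr10:43138195-43138494 (plus strand) for CSGALNACT2 and chr15:101251999-101252298 (minus strand) for CHSY1. Capitals mark, on either strand, the GC box (GGGCGG), the CCAAT box (CCAAT) and the hypoxia response core (ACGTG), the last of which lies inside the E-box CACGTG in CHSY1.
TMEM2: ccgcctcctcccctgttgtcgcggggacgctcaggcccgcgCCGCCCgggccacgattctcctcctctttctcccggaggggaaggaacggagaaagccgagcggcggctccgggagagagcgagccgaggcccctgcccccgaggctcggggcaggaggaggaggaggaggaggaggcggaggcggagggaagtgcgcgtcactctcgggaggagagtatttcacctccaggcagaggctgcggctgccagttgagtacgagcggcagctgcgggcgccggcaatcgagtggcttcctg
CSGALNACT2: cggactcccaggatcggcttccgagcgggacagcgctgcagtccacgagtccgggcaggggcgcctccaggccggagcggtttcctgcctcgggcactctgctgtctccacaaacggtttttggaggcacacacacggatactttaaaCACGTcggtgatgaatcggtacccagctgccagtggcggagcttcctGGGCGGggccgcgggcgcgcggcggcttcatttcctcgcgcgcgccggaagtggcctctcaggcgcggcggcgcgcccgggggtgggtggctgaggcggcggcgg
CHSY1: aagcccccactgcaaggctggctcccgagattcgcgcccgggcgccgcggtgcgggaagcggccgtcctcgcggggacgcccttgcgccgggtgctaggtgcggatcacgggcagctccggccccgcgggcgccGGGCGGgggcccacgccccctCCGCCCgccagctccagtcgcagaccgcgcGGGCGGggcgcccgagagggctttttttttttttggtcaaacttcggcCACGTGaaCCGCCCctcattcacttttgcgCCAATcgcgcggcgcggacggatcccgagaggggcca

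TMEM2 has 1 GC box and no other marked motif in this window, CSGALNACT2 has 1 GC box and 1 hypoxia response core, and CHSY1 has 4 GC boxes, 1 CCAAT box and an E-box read as the hypoxia response core on both strands. Over the first listed promoter of all 9 genes, a GC box stood in 8, beside 45.0% of 35116 promoters in the table. The GC content of these windows ran from 63.3% in CD44 to 79.3% in XYLT2, beside a median of 58.7% over all promoters. The hypoxia response core stood in 4 of 9, CD44, CSGALNACT2, CHSY1 and CHPF, beside 21.4% of all promoters. A CCAAT box stood in 1 of 9, beside 34.6%, and the E-box in 1 of 9, beside 7.26%. The TATA box (TATAAA) was in 0 of 9, beside 11.5%, and the AP-1 site (TGANTCA) in 0 of 9, beside 7.71%. The 35116 promoters were not limited to genes measured here or matched for GC content, so nothing is read from these motif counts. GENCODE places a further start of TMEM2 upstream of this window, so the window is 1 of its possible promoters. CHPF has a further RefSeq promoter, left out of these counts, with 1 CCAAT box and no GC box or hypoxia response core.

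The 5 genes nearest to TMEM2 by distance over its 2 log2 fold changes, among 5468 genes outside the lists with a mean of at least 500, were PLAU (distance 0.53), IL1RAP (0.55), HMGA2 (0.74), SLC4A7 (0.83) and DCP2 (0.85). This likeness rests on only 2 comparisons with shared controls.

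The other genes of the pathway were read from 11 lists, of which 97 genes out of 156 listed were in the tables. Without the 9 genes above, 36 of 88 were higher with siRNA5, 21 lower and 31 not called, where 24.4% of all genes were higher and 22.0% lower. With siRNA8, 28 were higher, 22 lower and 38 not called, where 21.0% of all genes were higher and 20.5% lower. The counts per list below are descriptions of small lists against these same shares, and nothing particular to a list is read from them. Their median log2 change was 0.09 with siRNA5 and 0.04 with siRNA8. HAS3, the only hyaluronan synthase in the tables, rose by 0.65 with siRNA5 (SE 0.095, adjusted p = 6.2e-11 by the authors' Wald test) and had a log2 change of 0.08 with siRNA8 (SE 0.097, adjusted p = 0.562), in the authors' deposited tables. Of 8 measured hyaluronan receptors and binding proteins, CD44 included, 4 were higher and 1 lower with siRNA5. In siRNA8 cells 0 were higher and 4 lower. Over all genes, 24.4% were higher and 22.0% lower with siRNA5, and 21.0% higher and 20.5% lower with siRNA8. TNFAIP6, which links protein chains to hyaluronan, rose by 1.13 with siRNA5 (SE 0.13) and fell by 1.06 with siRNA8 (SE 0.16) in the authors' deposited tables. VCAN, a large chondroitin sulfate proteoglycan that binds hyaluronan, fell by 0.30 with siRNA5 (SE 0.081) and by 1.02 with siRNA8 (SE 0.081), by the authors' deposited tables.

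Of the 16 genes for sugar and sulfate donors, UGDH among them, 10 were higher, 2 lower and 4 not called with siRNA5. With siRNA8, 8 were higher, 4 lower and 4 not called. Beside these and the list counts below, 24.4% of all genes were higher and 22.0% lower with siRNA5. With siRNA8 these shares were 21.0% and 20.5%. GFPT1, which catalyses the first step toward UDP-N-acetylglucosamine, the other donor of hyaluronan, rose by 1.20 with siRNA5 (SE 0.053) and had a log2 change of -0.05 with siRNA8 (SE 0.056, adjusted p = 0.509) in the authors' deposited tables. GNPNAT1, its acetyltransferase, rose by 0.96 (SE 0.084) and 0.95 (SE 0.084), and PGM3, its mutase, by 0.55 with siRNA5 (SE 0.068) beside a log2 change of 0.16 with siRNA8 (SE 0.069), as the authors' deposited tables give them. SLC35D2, a Golgi carrier of nucleotide sugars, rose by 1.00 and 0.36 (SE 0.095 and 0.099), and SLC35B2, the Golgi carrier of the sulfate donor, had a log2 change of -0.07 with siRNA5 (SE 0.083) and fell by 0.86 with siRNA8 (SE 0.088), per the authors' deposited tables. Of 5 linker genes, XYLT2 included, 1 was higher and 2 lower with siRNA5, and 0 were higher and 2 lower with siRNA8. B4GALT7, which adds the first galactose of the linker, fell by 0.54 with siRNA5 (SE 0.12) and by 0.69 with siRNA8 (SE 0.12) in the authors' deposited tables. B3GALT6, which adds the next galactose, fell by 0.53 with siRNA5 (SE 0.10) and had a log2 change of -0.016 with siRNA8 (SE 0.097, adjusted p = 0.915 by the authors' Wald test), by the authors' deposited tables. FAM20B, the linker's xylose kinase, rose by 0.53 with siRNA5 (SE 0.067) and had a log2 change of 0.04 with siRNA8 (SE 0.069, adjusted p = 0.641), by the authors' deposited tables. Of 5 chain polymerization genes, which are CHSY3 and 4 of the 9, 3 were higher and 1 lower with each siRNA. Of 9 genes for sulfation and epimerization, 1 was higher and 2 lower with siRNA5, and 1 was higher and 5 lower with siRNA8, among them the epimerase relative DSEL. DSEL had a log2 change of -0.26 with siRNA5 (SE 0.15, adjusted p = 0.131 by the authors' Wald test) and fell by 0.63 with siRNA8 (SE 0.15), per the authors' deposited tables, and the difference between the siRNAs was not called (adjusted p = 0.18 over all genes).

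**Figure D4:**
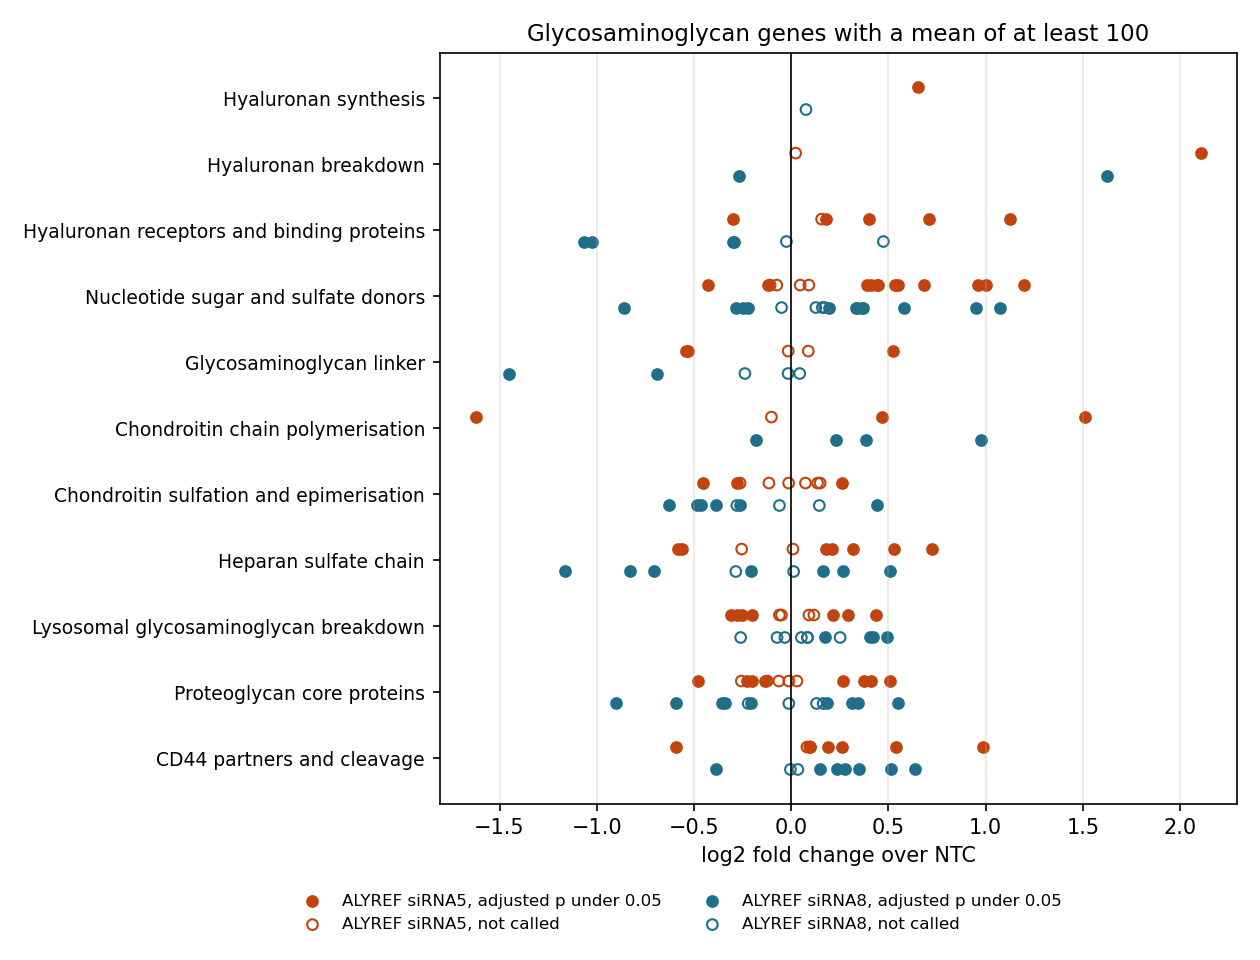
Log2 fold change over NTC (x axis) of 85 glycosaminoglycan genes with a mean of at least 100, by list (rows), with ALYREF siRNA5 (orange, upper) and ALYREF siRNA8 (blue, lower); filled points have an adjusted p under 0.05. A gene in 2 lists is drawn in the first, and 12 genes with a lower mean are not drawn. TMEM2 at 2.11 and CSGALNACT2 at 1.51 are the points furthest to the right with siRNA5.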

How the data were processed

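Polyadenylated RNA of 786-O cells was read as paired ends of 42 nt, per the labels. Tools in the submitters' processing notes are STAR, Picard, HTSeq and DESeq2 (no versions), with the build hg19. Each of the 2 deposited tables has 11681 rows, 11679 genes and 2 counters for unassigned reads (6.23% and 1.62% of the summed means), which stay out of every count of genes. The means are a signal per gene, a normalized count averaged by the authors over libraries and identical in both tables. Fold changes and standard errors are log2 values per the file headers, and whether they were shrunk is not stated. The deposited Wald score was recomputed from the fold change and its SE to within rounding. The adjusted p-values were likewise recomputed by Benjamini-Hochberg from the deposited p-values, which were themselves taken as given. The lowest mean was 11.6, and no source used here gives the depth of a library. The median SE of genes with a mean of at least 500 was 0.073 with siRNA5 and 0.072 with siRNA8. Direction was read from ALYREF and the table of each siRNA from the number shared with the library titles.

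Here 95% intervals use the normal distribution. For siRNA5 against siRNA8, the difference of the log2 values was divided by the square root of SE squared plus SE squared. The normal two-sided p was adjusted over all genes. The calculation was run on simulated data with normal errors drawn from the deposited SEs. Such data cannot test SEs that rest on 2 libraries per group. The 9 genes and the lists were chosen with earlier results of these data known. Named genes are ALYREF, the 9 genes, list genes with a mean of at least 100 called and changed by at least 0.5 (log2) with 1 siRNA (34, of which 30 are not among the 9), and the 5 nearest to TMEM2. RefSeq gave promoters for all 9 genes, and GENCODE matched 94.2% of the genes measured. Python 3.11.15, pandas 2.3.3 and scipy 1.17.1 were used. A plan for counts per library could not be followed, so the authors' fit stands in its place. Thresholds, adjustment, centring and the covariance were varied. All p-values rest on the spread of these libraries alone, and that spread may be technical.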

Additional observations from a re-analysis of the deposited data

Results flagged for a closer look

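Of the 30 pathway genes named by rule besides the 9, 21 had a log2 fold change that differed between ALYREF siRNA5 and ALYREF siRNA8 (adjusted p under 0.05 by the test of the difference), each with 2 libraries per group and no values per library. These 30 were named for a large change with at least 1 siRNA, which favours a difference between the siRNAs, so their number is not set against other genes. Over all 88 list genes besides the 9, which include these 30, the difference was higher in 26 and lower in 12. Beside this, 17.2% of all genes were higher and 14.8% lower. The lists were chosen with earlier results of these data known, so nothing is read from these counts. Differences below are siRNA5 minus siRNA8 on the log2 scale, and 7 of the 21 genes were called in opposite directions. These 7 are TNFAIP6 (2.19), GLCE (1.69), EXTL3 (1.14), IMPAD1 (0.93), EXT1 (-0.85), SPOCK1 (-1.03) and SPP1 (-1.23). Among genes of hyaluronan synthesis and binding, the difference was 0.58 for HAS3 and 0.72 for VCAN. Among genes for sugar and sulfate donors it was 1.25 for GFPT1, 0.39 for PGM3, 0.41 for UXS1, 0.64 for SLC35D2 and 0.78 for SLC35B2. Among linker genes it was -0.51 for B3GALT6 and 0.48 for FAM20B. Among core proteins it was 0.46 for SDC4 and 0.70 for NRP1. Among CD44 partners it was 0.99 for ADAM10, 0.26 for ADAM17 and -0.42 for MSN.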

How the results depend on the processing

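No paired analysis was possible because the tables give no values per library, and leaving out a replicate and an edgeR fit were not run for the same reason. A minimum of 1.5-fold left 2 of the 9 genes higher with siRNA5 and 2 higher and 1 lower with siRNA8. TMEM2 and CSGALNACT2 kept their calls with both siRNAs, whereas CHSY1 and CD44 lost theirs with both. Of 78 log2 values of the 9 genes and the named list genes, some of which had no call to lose, 34 lost their call. Over all 11 lists the minimum left 14 higher and 5 lower with siRNA5, against 40 and 22 without it. With siRNA8 it left 7 higher and 11 lower, against 32 and 27. Of all 11679 genes it left 748 higher and 963 lower with siRNA5, and 561 higher and 905 lower with siRNA8. A threshold of 0.01 left 3 of the 9 genes lower with siRNA8 and 13 list genes lower with siRNA5. HYAL2 (adjusted p = 0.0249) and CHPF2 (adjusted p = 0.0107) lost their call with siRNA8, by the authors' Wald test. At 0.01, 1951 of all 11679 genes were lower with siRNA5 and 1859 with siRNA8. The other counts, and all counts of the difference between the siRNAs, stayed within 1.5 times of their value under these thresholds, under adjustment over genes averaging 100 or more, under centring on the median gene (shifts of 0.022 and 0.017) and with the covariance of the shared controls. No log2 value of the 9 genes or the named list genes changed sign. Among other named list genes with siRNA5, GFPT2 (adjusted p = 0.05), SDC4 (0.0319) and NRP1 (0.0262) by the authors' Wald test lost their call at 0.01, and GFPT2 also under centring (adjusted p = 0.0645). The difference of ADAM17 (adjusted p = 0.0236) was lost at 0.01. Adjustment over genes averaging 100 or more added calls for LAYN (0.0471) and PGM3 (0.0443) with siRNA8 and for the difference of GFPT2 (0.0477). The covariance added the differences of HYAL2 (0.0112), GFPT2 (0.00265) and DSEL (0.0299). Depth per library is not known, and some counted calls rest on low means, such as COL12A1 (12.3), SGSH (20.9) and ANK3 (23.7).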

Other observations

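Heparan sulfate, the other chain built on the same linker, showed changes in both directions. Of 11 measured genes for its chain, 6 were higher and 2 lower with siRNA5, and 3 were higher and 4 lower with siRNA8. EXTL2, a transferase that acts on the linker, rose by 0.72 with siRNA5 (SE 0.11) and 0.51 with siRNA8 (SE 0.11), by the authors' deposited tables. NDST2, a deacetylase and sulfotransferase, fell by 0.56 with siRNA5 (SE 0.15) and by 0.71 with siRNA8 (SE 0.15), by the same tables of the authors. EXT1, a heparan polymerase, fell by 0.58 with siRNA5 (SE 0.051) and rose by 0.27 with siRNA8 (SE 0.049), whereas EXTL3, which starts the heparan chain, rose by 0.32 with siRNA5 (SE 0.076) and fell by 0.83 with siRNA8 (SE 0.083), in the authors' deposited tables. GLCE, the epimerase of heparan sulfate, rose by 0.53 with siRNA5 (SE 0.12) and fell by 1.16 with siRNA8 (SE 0.15) in the authors' deposited tables. Of 14 lysosomal enzymes of glycosaminoglycan breakdown, 4 were higher and 4 lower with siRNA5, and 5 were higher and 0 lower with siRNA8. Over all genes, 24.4% were higher and 22.0% lower with siRNA5, and 21.0% were higher and 20.5% lower with siRNA8, and nothing particular to these lists is read from their counts.

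Of 17 measured proteoglycan core proteins, CD44 and VCAN included, 5 were higher and 6 lower with siRNA5, and 4 were higher and 7 lower with siRNA8. GPC4, a glypican, rose by 0.51 with siRNA5 (SE 0.10) and 0.35 with siRNA8 (SE 0.10), per the authors' deposited tables. The syndecan SDC4 fell by 0.14 with siRNA5 (SE 0.055) and by 0.59 with siRNA8 (SE 0.056) there. Of 10 CD44 partners and proteases, 5 were higher and 2 lower with siRNA5, and 7 were higher and 1 lower with siRNA8. Beside these counts, 24.4% of all genes were higher and 22.0% lower with siRNA5, and 21.0% higher and 20.5% lower with siRNA8. Nothing particular to the core proteins or the CD44 partners is read from these counts. ADAM10, a protease that sheds CD44, rose by 0.99 with siRNA5 (SE 0.046) and had a log2 change of -0.0037 with siRNA8 (SE 0.048), in the authors' deposited tables. MSN, moesin, which ties CD44 to actin, had a log2 change of 0.10 with siRNA5 (SE 0.044) and rose by 0.51 with siRNA8 (SE 0.043), in the authors' deposited tables. SPP1, osteopontin, a ligand of CD44, fell by 0.59 with siRNA5 (SE 0.078) and rose by 0.64 with siRNA8 (SE 0.073), in the authors' deposited tables.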
